A study of Mus musculus with 8 samples.

Results

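The double-low macrophages described here are 1164 of the 3905 C1q macrophages found among 53528 single cells of mouse hepatoma tumours. A cell counted as a C1q macrophage when its mean deposited value of C1qa, C1qb and C1qc was at least 1.5 and its mean of the T cell genes Cd3g and Trbc2 was below 0.5. It counted as double-low when Arg1 and Cxcl9 were both below 0.5. These 7 genes chose the cells, so their values are given as a description only, and every comparison with the other C1q macrophages sets cells apart that were selected on Arg1 and Cxcl9. The double-low cells made up 29.8% of C1q macrophages (exact Clopper-Pearson interval at the 95% level 28.4 to 31.3) and 2.17% of all cells.

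C1q macrophages are tissue macrophages that make the complement protein C1q, which binds dying cells and immune complexes and marks them for uptake. Arg1 encodes arginase 1, which breaks down arginine and is known from hypoxic and wound-healing macrophages. Cxcl9 encodes a chemokine that interferon gamma induces and that draws T cells carrying CXCR3. Both genes are widely used to set apart macrophage states in tumours.

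The tumours grew from Hepa1-6, a mouse hepatoma cell line, and were dissociated whole, with no sort for immune cells recorded in the labels. The labels give 4 groups: tumours of unedited cells (WT) given PBS, tumours of unedited cells given PD1 antibody, tumours of Soat1-edited cells given PBS, and tumours of Soat1-edited cells given PD1 antibody. All injections were intraperitoneal. Soat1 encodes an enzyme that esterifies cholesterol. Its editing is labelled a knockout in titles but a knockdown under genotype, and it is in the tumour cells, not in the host that supplies the macrophages. Each group has 2 entries, for cDNA and for oligo libraries.

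By the last digit of their names the cells fall into sets numbered 1 to 6, and no label ties a set to a group. The sets are therefore unassigned samples, and no effect of Soat1 or of the antibody on the double-low cells was measured. Nothing says whether the sets came from separate animals. Counting errors below do not cover differences between animals, no p-value was computed, and a fold difference was not tested against replicate error. The names hold running numbers in place of barcodes: 12741 of 22421 of them recur in more than 1 set, so barcodes shared between libraries could not be counted.

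Counts of UMIs (unique molecular identifiers, each 1 captured transcript) could be recovered in set 1 alone. Levels there are in CPM: the UMIs of a gene summed over the cells of a class, divided by all UMIs of those cells and scaled to 1000000. Sets 2 to 6 hold values below 0 in every cell, so they were changed by a further step that may be batch integration. Their differences are differences of deposited natural-log values.

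The double-low share ran from 24.0% to 34.4% of the C1q macrophages of a set, with a median of 29.1%. It was 33.4% in set 1 (211 of 632 cells), 29.1% in set 2 (136 of 468), 34.4% in set 3 (293 of 852), 24.0% in set 4 (184 of 767), 28.1% in set 5 (140 of 498) and 29.1% in set 6 (200 of 688). Set 4 was the lowest, and its interval of 21.0 to 27.2 did not reach those of sets 1 and 3. In the same set the Arg1-positive, Cxcl9-low cells took their highest share, 27.0%, against 10.4% to 18.4% in the other 5 sets. Cxcl9-positive, Arg1-low cells ranged from 27.2% to 49.2% of C1q macrophages, and cells above the limit for both genes from 5.28% to 21.8%. Pooled over the sets these 3 classes held 640, 1551 and 550 cells. The limits were applied to unaltered values in set 1 and to altered ones in sets 2 to 6, so shares may not be comparable between sets.

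**Figure D1:**
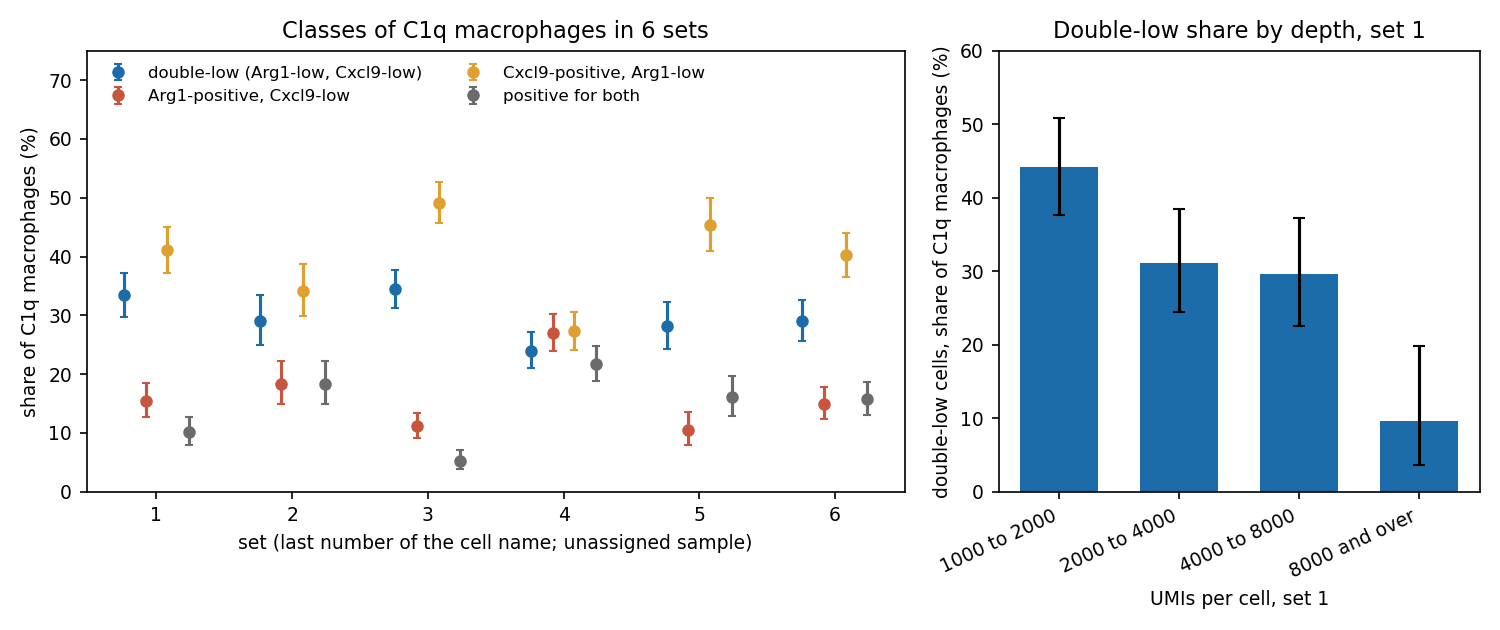
Left, the share of C1q macrophages (%) in each of 4 classes for sets 1 to 6, with exact Clopper-Pearson 95% intervals as bars; right, the share of C1q macrophages of set 1 that are double-low (%) by UMIs per cell, with the same intervals. The double-low share stays between 24.0% and 34.4% over the sets and falls from 44.2% below 2000 UMIs to 9.68% at 8000 UMIs and over.

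Depth moved with the class. Among set 1 C1q macrophages, 44.2% of cells with 1000 to 2000 UMIs were double-low (interval 37.6 to 50.8), 31.1% of those with 2000 to 4000, 29.6% of those with 4000 to 8000 and 9.68% of those with 8000 or more (interval 3.63 to 19.9). All 211 double-low cells of set 1 had 0 UMIs of Arg1 and 0 of Cxcl9. At their median depth 1 UMI already gives a value of 1.79. A cell can hold 1 UMI and stay below the limit only with over 15415 UMIs, which 2 of the 211 had. In set 1 the class therefore holds cells in which neither transcript was captured, which is not the same as cells that lack it. After 4 called doublets were left out, 207 double-low cells had a median of 2007 UMIs and 155 detected genes, against 3144 UMIs and 210 genes in the 416 other C1q macrophages. The Arg1-positive cells had a median of 2482 UMIs and the Cxcl9-positive cells 3420. How far depth enters the differences below was not tested as a cause; values from cells thinned to 1000 UMIs are given for those of the 15 highest and 15 lowest genes whose 2-fold call was lost or whose ratio moved by over 1.5 times with thinning. Near the limits, 26 double-low cells had Arg1 within 0.1 below its limit and 14 other cells, low in Cxcl9, within 0.1 above it. For Cxcl9 there were 16 and 11, and for the C1q mean 39 inside and 42 outside.

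By the rule itself the cells carry C1q and T cells do not. C1qa stood at 6503 CPM in double-low cells, 5470 in the other C1q macrophages and 14.2 in T cells of set 1. C1qb stood at 977 against 945 CPM and C1qc at 1439 against 1573. The check of the label rests on genes the rule did not use. Of 18 macrophage identity genes in the table, all were measured in double-low cells, 14 had a ratio above 1 to the other C1q macrophages, and 1, Trem2, was at least 2-fold higher. Their summed level was 6598 against 5703 CPM, but their mean deposited value was lower in double-low cells in all 6 sets. Lyz2, which encodes lysozyme, stood at 1127 CPM in double-low cells and 5.25 in T cells. Adgre1, Csf1r, Cd68, Folr2, Lyve1, Vsig4 and Clec4f were not analysed here.

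Vcam1 encodes an adhesion molecule that binds the integrin VLA-4 on lymphocytes, and Ccl24 the chemokine eotaxin-2. Both were far above their level in T cells, and lower in double-low cells than in the other C1q macrophages. Vcam1 stood at 1333 CPM (exact Poisson interval 1243 to 1427) in double-low cells of set 1, 1162 in Arg1-positive cells, 1837 in Cxcl9-positive cells and 5.25 in T cells. Ccl24 stood at 1915 CPM (interval 1807 to 2028), 1443, 3885 and 13.2 in the same order. The double-low level lay between those of the other classes, at 0.73 and 0.52 times that of all other C1q macrophages. After thinning to 1000 UMIs, 52.2% of double-low cells held a Vcam1 UMI against 61.8% of the others and 0.346% of T cells, and 56.0% against 73.3% held one of Ccl24. Among cells with at least 3000 UMIs the Ccl24 log2 ratio was -1.54 in place of -0.94.

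The order was the same in each set. Mean Vcam1 values in double-low cells were 1.77, 1.32, 1.96, 1.33, 1.76 and 1.34 in sets 1 to 6, and those of the other C1q macrophages 2.20, 2.09, 2.24, 1.65, 2.26 and 1.96. Mean Ccl24 values were 2.13, 1.78, 2.40, 1.31, 2.33 and 1.67, against 2.85, 2.75, 2.81, 2.08, 3.12 and 2.49. The double-low mean was the lower one in all 6 sets for both genes, by 0.28 to 0.77 for Vcam1 and by 0.41 to 0.96 for Ccl24. Against the Arg1-positive cells alone the sign of the Vcam1 difference was mixed: Vcam1 was higher in double-low cells in sets 1, 3 and 4 and lower in sets 2, 5 and 6.

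Against all other C1q macrophages of set 1, 949 genes outside the selection rule had at least 20 UMIs. Of these, 42 (4.43%) were at least 2-fold higher in double-low cells and 78 (8.22%) at least 2-fold lower, on the scale of CPM plus 1. The median log2 ratio over all 949 was -0.07. Scavenger genes were frequent among the higher ones and interferon-induced genes among the lower ones.

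Scavenger and tissue macrophage genes stood higher as a group. Of 15 measured, 8 were at least 2-fold higher, none was 2-fold lower, and their median log2 ratio was 1.02. Retnla, a secreted protein of macrophages activated by interleukin 4, stood at 1305 CPM against 99.8, a ratio of 13.1 (exact conditional Poisson interval 11.1 to 15.4). A single cell gave 58.0% of the Retnla UMIs of the double-low cells, and without the top cell of each class the ratio was 10.9. On the log2 scale the Retnla difference of 3.70 was 1.89 with cells thinned to 1000 UMIs, 1.97 among cells with 1500 to 6000 UMIs and 2.11 as a mean over cells of each cell's CPM. Cbr2, a carbonyl reductase found in resident macrophages, stood at 158 against 17.5 CPM (ratio 9.02, interval 5.99 to 13.9). F13a1, the coagulation factor XIII A chain, stood at 354 against 87.2 CPM (4.06, interval 3.30 to 5.02), and Clec10a, a lectin receptor for galactose-type sugars, at 328 against 118 CPM (2.78, interval 2.28 to 3.39). These 4 genes were higher in double-low cells in all 6 sets, as the rule that named them required.

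The scavenger receptor Stab1 had a ratio of 2.43 (interval 1.89 to 3.13). The other 3 past 2-fold were Pf4, with a ratio of 2.04, Marco with 3.97 and Fcrls with 17.9 from 18 UMIs against 3 (interval 5.21 to 94.6). For Marco a single double-low cell held as many UMIs as all the others together, and 72.2% of the UMIs of the other C1q macrophages also came from 1 cell. Pf4 and Marco were higher in 5 of 6 sets and Fcrls in 6. Mrc1, the mannose receptor CD206, stood at 728 against 385 CPM (1.89, interval 1.67 to 2.13), Maf at 462 against 283 and Selenop, a selenium carrier, at 1440 against 971. None of these last 3 reached 2-fold, yet all were higher in 6 of 6 sets. Msr1 was the 1 measured gene of the list below a ratio of 1, at 0.85. After thinning, 40.1% of double-low cells held a Mrc1 UMI against 29.3% of the others, and 14.98% against 5.53% held one of F13a1. In T cells these shares were 0.0866% and 0.173%.

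**Figure D2:**
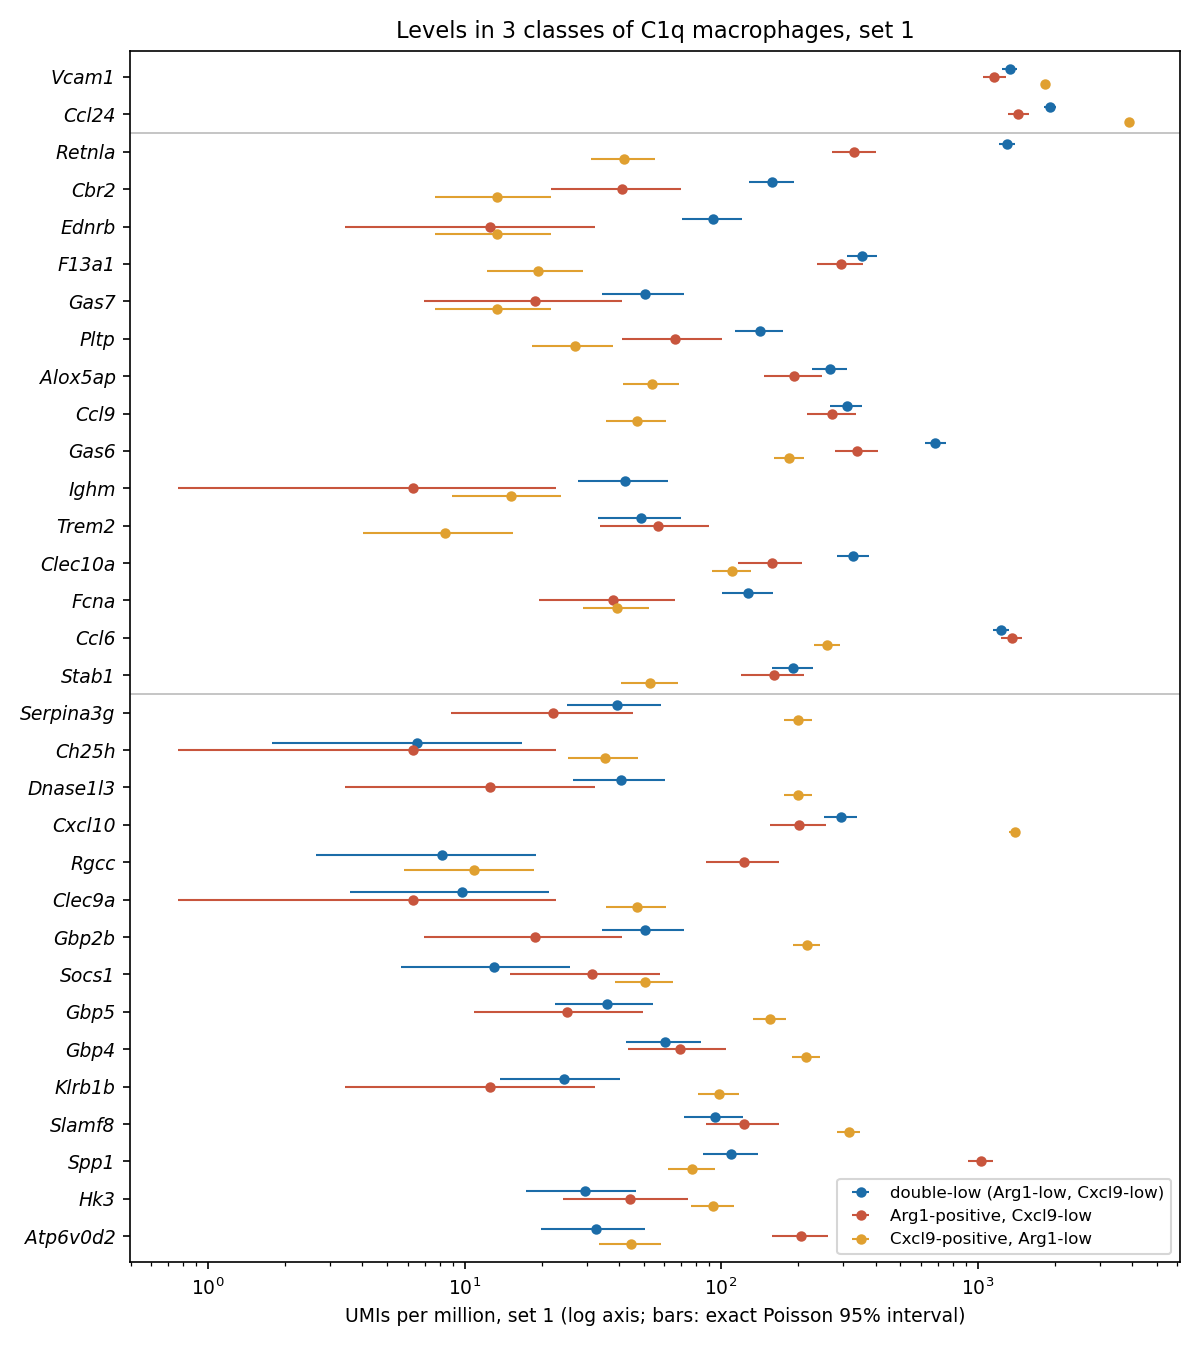
Levels in CPM (log axis) in set 1 for Vcam1 and Ccl24 (top), the 15 genes with the highest (middle) and the 15 with the lowest (bottom) ratio of double-low cells to other C1q macrophages; points are levels in double-low, Arg1-positive and Cxcl9-positive cells, bars exact Poisson 95% intervals that cover counting error only. Retnla is at 1305 in double-low, 331 in Arg1-positive and 42.0 in Cxcl9-positive cells, whereas for Cxcl10 and Gbp2b the double-low level lies nearer to the Arg1-positive one.

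Genes for the uptake of dying cells followed in part. Gas6, a bridge between phosphatidylserine on dying cells and the receptors Axl and Mertk, stood at 685 against 221 CPM (3.09, interval 2.69 to 3.56) and was higher in 6 of 6 sets. Mertk itself was at 344 against 343 CPM. Of 5 measured genes of the list, Gas6 and Stab1 were at least 2-fold higher and none lower. Gas6 also stood at 417 CPM in the set 1 cells that are not C1q macrophages, so it is no marker of macrophages here. Ednrb, the endothelin receptor B, had 57 UMIs in double-low cells and 20 in the others (ratio 8.48, interval 5.02 to 14.9, or 15.2 without the top cell of each class).

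Of 11 measured lipid-associated macrophage genes, 2 were at least 2-fold higher, Pltp (phospholipid transfer protein, ratio 3.81, log2 1.90, or 1.18 with thinned cells) and the lipid receptor Trem2 (2.98, from 30 UMIs in each group). Spp1, which encodes osteopontin, was at least 2-fold lower with a ratio of 0.37. The Spp1 log2 ratio of -1.43 was -0.58 with limits of 1 for Arg1 and Cxcl9 and -0.94 with a C1q mean of at least 2, both under 2-fold. Apoe, the most abundant secreted lipid carrier of the list, stood at 2786 against 1981 CPM (1.41, interval 1.33 to 1.49) and was higher in 6 of 6 sets. The list median was 0.02, close to that of all genes.

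Among 11 measured CC chemokines of myeloid cells, Ccl6 (1236 against 504 CPM, ratio 2.45) and Ccl9 (308 against 94.8, ratio 3.25) were at least 2-fold higher. Ccl6 was under 2-fold in 3 alternatives: its log2 ratio of 1.29 was 0.71 with thinned cells, 0.67 as a mean over cells and 0.88 with a C1q mean of at least 1. Ccl9 was at 1.10 in place of 1.69 as a mean over cells, and at 0.19 against the Arg1-positive cells alone. Ccl7, a ligand of CCR2, had a ratio of 1.72 and was higher in all 6 sets, while Ccl8 had a ratio of 1.48 but was higher in 1 set of 6. Ccl17 was the 1 gene at least 2-fold lower, with 0 UMIs in double-low cells against 21 in the others, of which 76.2% came from 1 cell. Among 8 enzymes of eicosanoid synthesis, Alox5ap (ratio 3.59) and Ltc4s (5.95, from 20 against 10 UMIs), both needed to make leukotriene C4, were at least 2-fold higher. The Alox5ap log2 ratio of 1.83 was 0.47 against the Arg1-positive cells alone, under 2-fold. Pla2g2d, a secreted phospholipase, was lower (0.41, from 8 against 58 UMIs), and Ptgs2, the inducible cyclooxygenase, stood at 193 against 331 CPM.

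Monocyte genes were higher for 4 of 9 measured, with a median log2 ratio of 0.56. Ccr2, the receptor that brings monocytes into tissue, stood at 259 against 119 CPM (2.17, interval 1.76 to 2.68) and was higher in all 6 sets. S100a4 had a ratio of 2.55 and was higher in 5 sets; it is also abundant in T cells, at 992 CPM. Ly6c2 and Ms4a4c complete the 4, but 63.2% of the Ly6c2 UMIs came from 1 double-low cell, and these 2 genes were higher in 2 and 3 sets of 6. With cells thinned to 1000 UMIs 0 of 7 measured genes of the list were at least 2-fold higher, whereas among cells with 1500 to 6000 UMIs 5 of 8 were.

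Interferon-induced genes were lower. Of 27 measured, 7 were at least 2-fold lower and 2 (Cmpk2 and Ms4a4c) at least 2-fold higher, with a median log2 ratio of -0.52. Cxcl10, another ligand of CXCR3, stood at 294 against 1037 CPM (0.28, interval 0.24 to 0.33). The guanylate-binding proteins, which attack the vacuoles of intracellular microbes, followed: Gbp2b at 50.6 against 169 CPM, Gbp4 at 60.4 against 188 and Gbp5 at 35.9 against 114. Iigp1, a GTPase of the same defence, had a ratio of 0.44. Cd274, which encodes PD-L1, stood at 75.03 against 159.5 CPM (0.47, interval 0.34 to 0.64), and Socs1, a brake on cytokine signals, at 13.1 against 44.4. All 7 were lower in double-low cells in 6 of 6 sets. Cxcl9 is induced by the same cytokine and chose the cells, so this direction is no independent finding.

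Genes outside that list completed the lowest 15. Serpina3g, a protease inhibitor, had a ratio of 0.25 (interval 0.16 to 0.38), and Dnase1l3, a secreted DNase, 0.26 (interval 0.17 to 0.39). Ch25h, which turns cholesterol into 25-hydroxycholesterol, had 4 UMIs in double-low cells and 52 in the others. Slamf8 stood at 94.6 against 264 CPM, the hexokinase gene Hk3 at 29.4 against 79.5, the proton pump subunit gene Atp6v0d2 at 32.6 against 78.4, and Rgcc at 8.15 against 31.2. Clec9a, a receptor for dead cells on dendritic cells, and the NK receptor gene Klrb1b had ratios of 0.27 and 0.32. Some of these sizes moved with the setting. With thinned cells the log2 ratio of Hk3 was -0.83 in place of -1.41, under 2-fold, and that of Clec9a -1.16 in place of -1.79, while Ch25h was at -2.57 in place of -1.97 and Rgcc at -2.67 in place of -1.82. Ch25h was also under 2-fold with limits of 1 for Arg1 and Cxcl9 (-0.67), as was Rgcc with a C1q mean of at least 2 (-0.96). Serpina3g was at -2.72 in place of -1.97 among cells with at least 3000 UMIs. Against the Arg1-positive cells alone, Dnase1l3 (1.62), Klrb1b (0.91), Serpina3g (0.80), Clec9a (0.56) and Ch25h (0.044) had log2 ratios above 0. Of the lowest 15, 7 stayed below 0 in that comparison and 4 past 2-fold. Against all other C1q macrophages the 15 were lower in double-low cells in all 6 sets, which the naming rule required of them.

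Antigen presentation genes gave different answers by UMI sums and by mean values. Summed UMIs of H2-Aa, a chain of MHC class II, were 1382 CPM in double-low cells and 1411 in the others (ratio 0.98, interval 0.91 to 1.06), and H2-Eb1 stood at 953 against 951. Mean deposited values of H2-Aa were nevertheless lower in double-low cells in all 6 sets, by 0.24 to 0.63. Of 10 measured genes of the list 1, H2-DMb2, was at least 2-fold lower and none higher, with a median log2 ratio of -0.30. H2-K1, an MHC class I gene, stood at 3996 against 4053 CPM.

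Cell cycle genes tended below 1. Of 36 G2 or M phase genes 35 had a ratio below 1, with a median log2 ratio of -0.51 and a summed level of 1735 against 2735 CPM, yet 1 alone passed 2-fold. Among cells with at least 3000 UMIs 11 of the 36 did, among those with 1500 to 6000 UMIs 0 of 28, and the list's mean deposited value was higher in double-low cells in 2 of 6 sets. Of 18 S phase genes, 5 were at least 2-fold lower (Gins2, Cdc6, Cdc45, E2f8 and Ccne1), each from 1 to 5 UMIs in double-low cells. With cells thinned to 1000 UMIs or held between 1500 and 6000 UMIs, 0 of the S phase genes passed 2-fold. Over all genes 8.26% and 7.45% were at least 2-fold lower in these 2 settings. Among cells with at least 3000 UMIs 9 S phase genes passed 2-fold. That setting kept 68 double-low and 216 other C1q macrophages, and the median log2 ratio of its 864 genes was -0.095. The G2 or M sum was 1650 CPM in Arg1-positive and 2981 in Cxcl9-positive cells.

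Set against the Arg1-positive cells alone, which share low Cxcl9 with them, the double-low cells were poorer in hypoxia and matrix-degrading genes and richer in MHC class II. Of 669 genes measured, 51 (7.62%) were at least 2-fold higher and 52 (7.77%) at least 2-fold lower. Of 10 metalloproteinase and matrix genes 6 were at least 2-fold lower, with a median log2 ratio of -1.38. Mmp12, the macrophage elastase, stood at 2561 against 9654 CPM (ratio 0.27, interval 0.25 to 0.28) and the collagenase Mmp13 at 954 against 3345 (0.29, interval 0.26 to 0.32). Mmp12 was lower than in Arg1-positive cells in each set, by 1.41, 1.34, 0.59, 1.08, 1.94 and 1.40 on the deposited scale in sets 1 to 6.

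Of 15 hypoxia and glycolysis genes, 6 were at least 2-fold lower (Ero1l, Vegfa, Hilpda, Egln3, Adam8 and Ankrd37) and none higher, with a median log2 ratio of -0.61. Arg1 is itself known from hypoxic macrophages and chose these classes, so this direction is no independent finding. Hilpda, a lipid droplet protein induced by low oxygen, stood at 207 against 592 CPM. Of 11 lipid-associated genes 5 were at least 2-fold lower, among them Spp1 at 109 against 1027 CPM (0.11, interval 0.081 to 0.14), Gpnmb at 68.5 against 340 and Fabp5 at 917 against 1994. Hmox1, heme oxygenase 1, stood at 1142 against 2425 CPM (0.47, interval 0.42 to 0.52). Hepatoma markers summed to 3538 CPM in double-low, 5166 in Arg1-positive and 3160 in Cxcl9-positive cells, against 15039 in cells that are not C1q macrophages, and their part in these differences was not tested.

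All 9 measured antigen presentation genes had a ratio above 1 to the Arg1-positive cells. H2-Aa stood at 1382 against 498 CPM (2.78, interval 2.34 to 3.31), H2-Ab1 at 1900 against 743 and H2-Eb1 at 953 against 306. The deposited H2-Aa values were higher in double-low cells in each set, by 0.74, 0.56, 0.31, 0.24, 0.57 and 0.34. Interferon-induced genes had a median log2 ratio of 0.54 here, with 5 of 21 at least 2-fold higher and 2 lower, so the lower level seen against all other C1q macrophages did not hold against this class. The scavenger list had a median log2 ratio of 0.17 here, with 9 of 14 genes above a ratio of 1. It was at least 2-fold higher for 4 of the 14: Cbr2 (ratio 3.86), Retnla (3.94), Clec10a (2.08) and Fcrls (3.11, interval 0.907 to 16.5, from 18 against 3 UMIs). F13a1, Stab1, Maf and Selenop lay within 1.21-fold of the Arg1-positive level, and the deposited F13a1 values were lower than those of Arg1-positive cells in sets 1 and 3 and higher in the other 4.

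Set against the Cxcl9-positive cells alone, which share low Arg1, the double-low cells were richer in scavenger genes and Hmox1 and poorer in interferon-induced genes. Of 853 genes measured, 55 (6.45%) were at least 2-fold higher and 87 (10.2%) at least 2-fold lower. Of 13 scavenger and tissue macrophage genes 10 were at least 2-fold higher, with a median log2 ratio of 1.57: F13a1 had a ratio of 18.3 (interval 11.9 to 29.5), Cbr2 11.8 (interval 6.90 to 21.4), Pf4 4.74, Mrc1 2.31 and Maf 2.15. Ccl6 had a ratio of 4.77 and Hmox1 2.91. F13a1 was higher than in Cxcl9-positive cells in each set, by 0.50, 0.52, 0.33, 0.42, 0.38 and 0.49. Interferon-induced genes were at least 2-fold lower for 9 of 26, and H2-Aa had a ratio of 0.80 (interval 0.73 to 0.86). Cxcl9 is itself induced by interferon gamma and chose these classes, so the interferon direction is no independent finding. Mmp12 stood at 2561 against 2394 CPM, but its mean deposited value was lower in double-low cells in all 6 sets, by 0.27 to 0.69. The 3 comparisons share the same double-low cells.

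**Figure D3:**
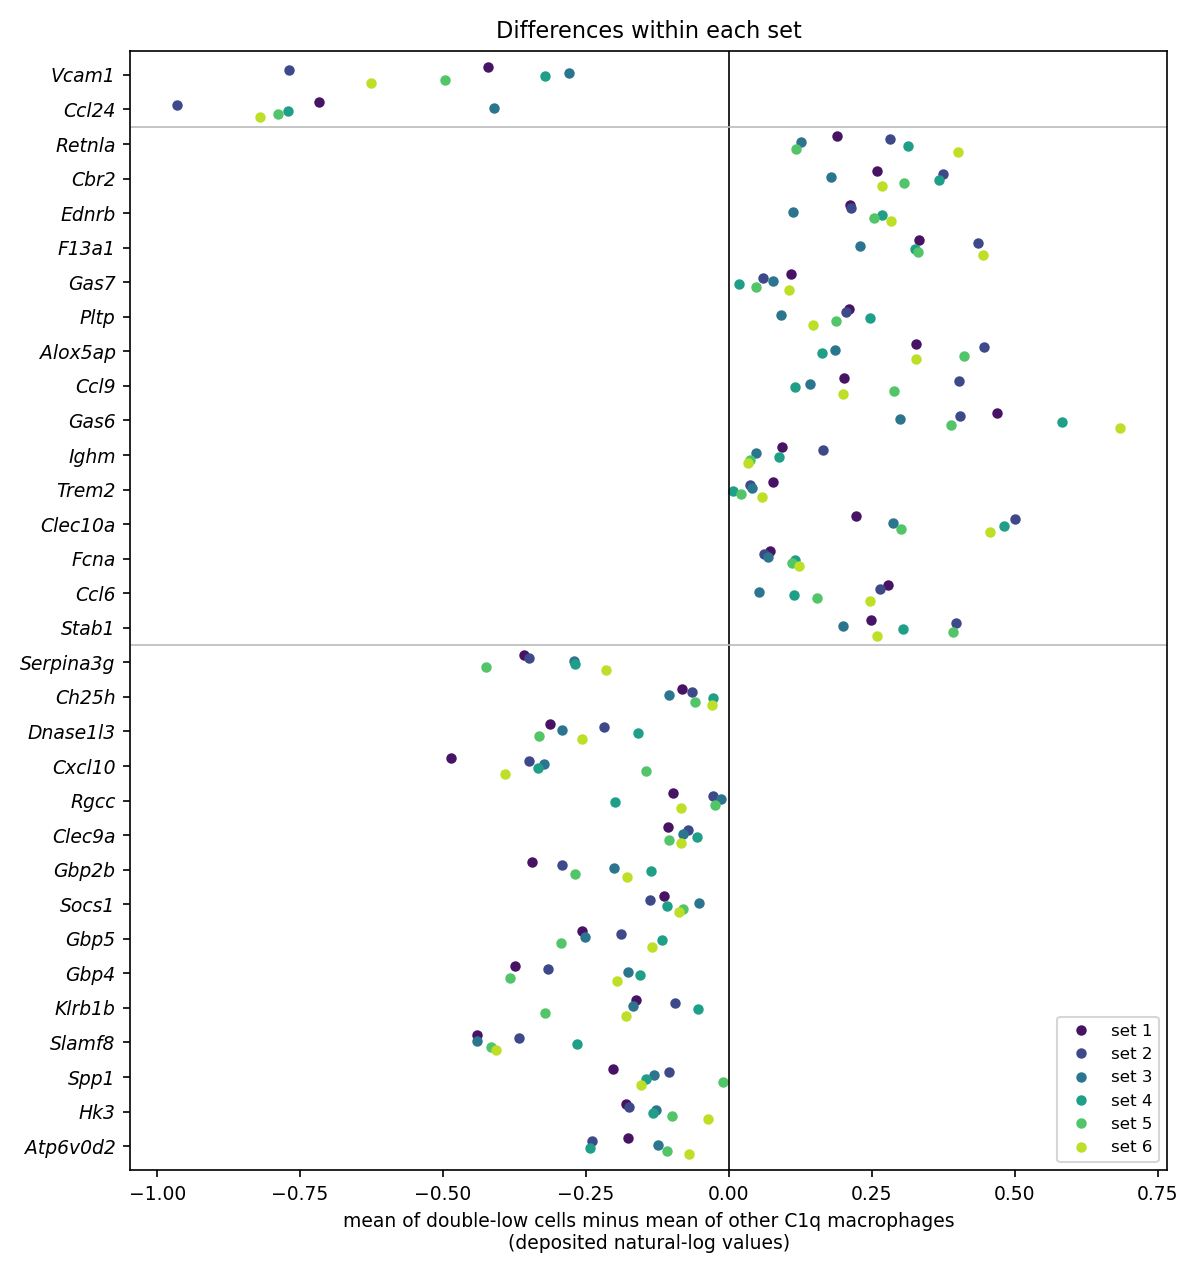
Mean deposited natural-log value of double-low cells minus that of the other C1q macrophages of the same set, 1 point per set, for Vcam1 and Ccl24 (top), the 15 highest (middle) and the 15 lowest (bottom) genes by set 1 ratio. Every point of the middle block lies right of 0 and every point of the other blocks left of it; the middle and bottom blocks were chosen for a shared sign, and the size still ranges over the sets, from 0.30 to 0.68 for Gas6.

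Levels within the double-low class ranged over the sets. For Vcam1, Ccl24 and Mmp13 the 3 highest means were those of sets 1, 3 and 5: Mmp13 values were 1.35, 1.24, 1.67, 0.98, 1.42 and 1.06 in the order of the sets. F13a1 had its 3 lowest means in the same sets, with 0.54, 0.64, 0.39, 0.66, 0.43 and 0.67, and so did Clec10a, with 0.68, 0.88, 0.64, 0.89, 0.60 and 0.76. The shares of Cxcl9-positive cells among C1q macrophages were 41.1%, 34.2%, 49.2%, 27.2%, 45.4% and 40.3%. Mrc1 did not follow the same order, with values from 1.11 in set 3 to 1.44 in set 4. These 5 genes were picked after their values were seen, the sets carry no group label, and no test was made.

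**Figure D4:**
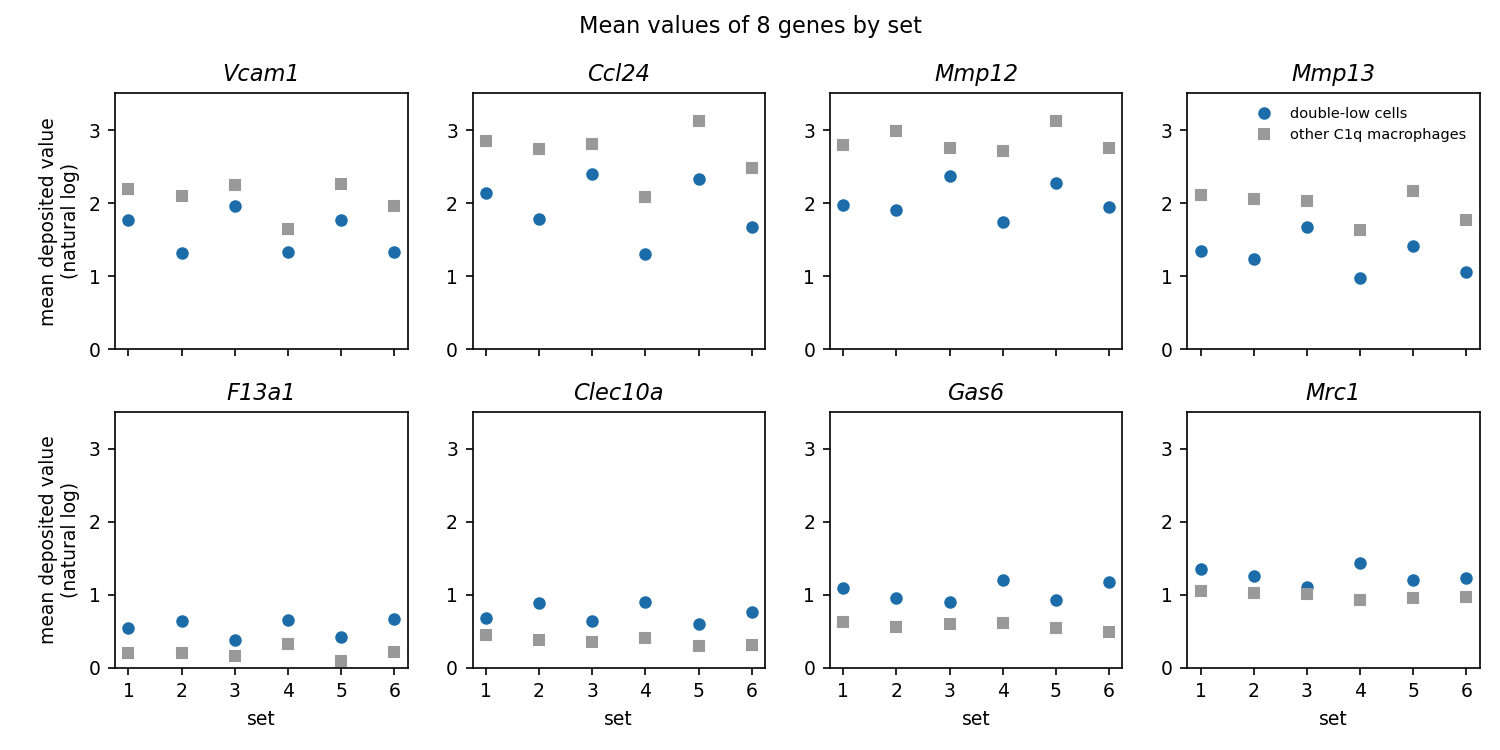
Mean deposited natural-log values of 8 genes in double-low cells (circles) and other C1q macrophages (squares), by set. In double-low cells Vcam1, Ccl24 and Mmp13 have their 3 highest means in sets 1, 3 and 5, and F13a1 and Clec10a their 3 lowest.

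Within the class, 3 groups of genes were described, and they were only partly apart from each other. Correlations are Spearman's rho across the double-low cells of a set, which share a library and differ in depth, so they are descriptions with no p-value. The first group was Vcam1, Ccl24, Mmp12 and Mmp13. Vcam1 and Ccl24 had rho of 0.48, 0.54, 0.41, 0.38, 0.51 and 0.36 in sets 1 to 6, and 0.42 in set 1 with cells thinned to 1000 UMIs. Ccl24 and Mmp12 had a median rho of 0.52 over the sets, and Vcam1 and Mmp13 of 0.44. Gdf15, a stress cytokine, was also among the genes with the highest median rho to Vcam1, at 0.41. Other top-ranked genes by the naming rule (Lhfp, C78334 and Svep1 at the high end, Cryab and Cyp3a16 at the low end) had 1 to 5 UMIs in the double-low cells of set 1 and set 1 values within 0.10 of 0, so their rank rests on the altered sets.

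In set 1, 102 of 125 double-low cells with a Vcam1 UMI also held Ccl24 (81.6%, interval 73.7 to 88.0), against 34 of 82 without one (41.5%, interval 30.7 to 52.9). The cells with Vcam1 were the shallower ones, with a median of 1806 UMIs against 2756.

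The second group was the scavenger programme. Cbr2 and Ednrb had a median rho of 0.61 over the sets (0.50 to 0.83), Cbr2 and F13a1 0.61 and Gas6 and Cbr2 0.56. Of 29 double-low cells of set 1 with a Cbr2 UMI, 23 held Ednrb (79.3%, interval 60.3 to 92.0), against 3 of 178 without one (1.69%, interval 0.349 to 4.85). Cells with Cbr2 were deeper, at a median of 3573 against 1867 UMIs; after thinning, rho of Cbr2 and Ednrb was 0.54. Retnla varied less tightly with them, at a median rho of 0.31 to Cbr2 and values near 0 in sets 5 and 6.

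Some genes of the first 2 groups varied in opposite directions, and others were near 0. Vcam1 correlated negatively with Ednrb in all 6 sets (median rho -0.36, range -0.47 to -0.33) and with Alox5ap (-0.35), and Mmp12 and Cbr2 had a median rho of -0.51. Vcam1 had medians of -0.07 to Mrc1, with positive values in sets 3 and 5, -0.04 to Hmox1 and -0.01 to Retnla, and Mmp13 had 0.05 to Retnla. Cbr2 was found in 5 of 125 double-low cells with Vcam1 (4.00%, interval 1.31 to 9.09) and in 24 of 82 without it (29.3%, interval 19.7 to 40.4). The cells without Vcam1 were deeper by the medians above, and with thinned cells rho of Vcam1 and Cbr2 was -0.25.

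Ccr2 and MHC class II made the third group. Ccr2 and H2-Eb1 had a median rho of 0.37 (0.20 to 0.42), and 40 of 45 cells with Ccr2 held H2-Aa (88.9%, interval 76.0 to 96.3) against 94 of 162 without it (58.0%, interval 50.03 to 65.7). Cells with Ccr2 had a median of 4093 UMIs against 1744, and the thinned rho of Ccr2 and H2-Aa was 0.19. Ccr2 was negatively correlated with Vcam1 in all 6 sets (median -0.29) and near 0 with Cbr2 (-0.01). Gas6 was negatively correlated with H2-Aa in all 6 sets (median -0.28), as were Cbr2 and Ednrb (both -0.17). Medians to H2-Aa were nearer 0 for F13a1 (-0.08), Mrc1 (-0.08) and Stab1 (-0.06). Those of Vcam1 (-0.06), Ccl24 (-0.001) and Mmp12 (0.02) to H2-Aa were also near 0, with both signs over the sets.

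**Figure D5:**
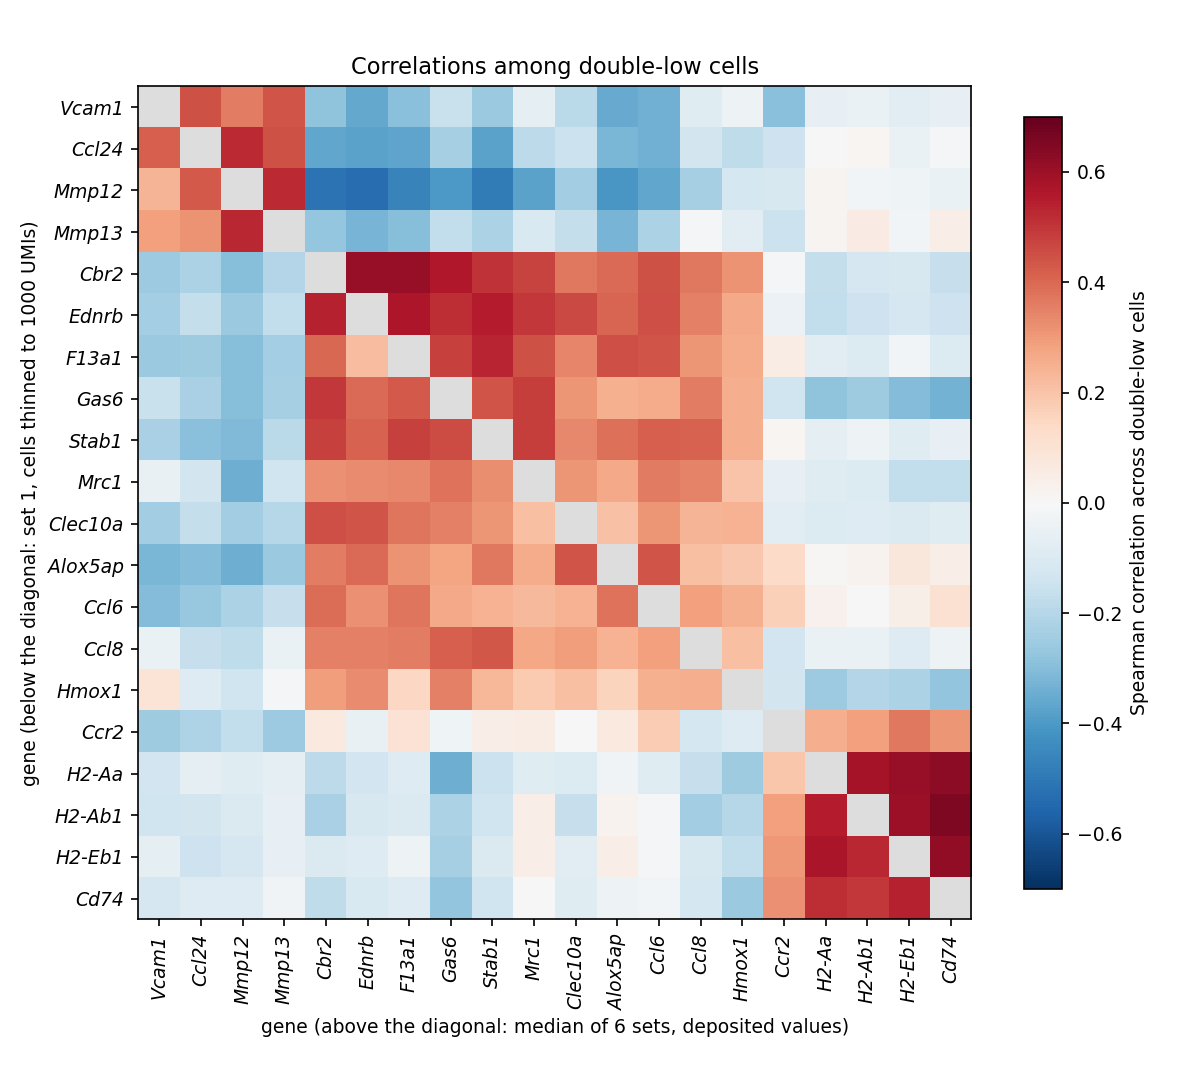
Spearman correlation across double-low cells for 20 genes; above the diagonal the median of the 6 sets on deposited values, below it set 1 with each cell thinned to 1000 UMIs, on a colour scale from -0.7 to 0.7. Vcam1, Ccl24, Mmp12 and Mmp13 form a block at the top left, the genes from Cbr2 to Hmox1 another in the centre, and Ccr2 with MHC class II the last at the lower right. Values between the first 2 blocks are mostly negative, with some near 0. Hmox1 has a median of -0.04 to Vcam1 (0.10 with thinned cells) but -0.18 to Ccl24, and Ccl8 has -0.01 to Mmp13.

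Markers of other cell types were compared by their sums, which were close to those of the other C1q macrophages for some types and apart for others. Summed T cell markers stood at 81.6 against 79.5 CPM, compared with 6617 in T cells, and NK cell markers at 53.8 against 84.4, with Ncr1 and Klra4 at 0 UMIs. B and plasma cell markers summed to 62.0 against 24.1 CPM and were higher in double-low cells in 6 of 6 sets; of this list Ighm, the immunoglobulin mu chain, had 26 against 24 UMIs (ratio 3.22), and Ms4a1, Ighd, Iglc2 and Iglc3 were at 0. Neutrophil markers summed to 250 against 224 CPM, and to 769 in Arg1-positive cells. Conventional dendritic cell markers summed to 2191 against 2048 CPM, nearly all of it from Cst3 and Naaa, which macrophages also express, with Ccr7, Fscn1, Itgae and Ccl17 at 0. Of 4 measured genes of that list, 2 were at least 2-fold lower in double-low cells and none higher, with a median log2 ratio of -0.88. Mast cell markers summed to 1.63 against 6.58 CPM, endothelial markers to 11.4 against 26.9 and fibroblast markers to 93.0 against 78.9. Plasmacytoid dendritic cell markers summed to 546 against 582 CPM, with Siglech, Klk1, Ccr9 and Spib at 0. Mitochondrially encoded transcripts summed to 5528 against 6060 CPM. Whether cells of these types have a part in the results was not tested.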

How the data were processed

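Dissociated tumours were sequenced as droplet 3′ libraries (DNBelab C4). The labels' protocols name STAR for alignment (2.7.2b, per the submitters' processing notes), PISA for UMI counting and DropletUtils barcodeRanks for choosing cells. The series text names GRCh38 and the processing notes mm10 and GRCh38, so no coordinates are given. The authors deposited 1 table of 2000 genes and 53528 cells on the natural log scale; all 53528 columns belong to no known sample.

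Set 1 values are ln(1 + UMIs per 10000), and UMI totals were recovered for 100% of its 9370 cells (1001 to 261833 UMIs, median 11098), with 15.03% of UMIs in the 2000 genes. In sets 2 to 6 a total was found for 12.51% to 29.48% of cells, and counts were not used there. Scrublet (scanpy 1.11.5, expected rate 6%) called 91 set 1 cells (0.971%), which were left out of set 1 levels but not of shares. T cells, the class that should lack macrophage genes, had a Cd3g and Trbc2 mean of at least 1.5 and a C1q mean below 0.5.

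Genes with at least 20 UMIs over both classes were compared, with a pseudocount of 1 CPM for the log2 ratio and a 2-fold limit; printed ratios carry no pseudocount. Intervals (95%, exact) reflect counting error alone. Named genes are the rule genes, the markers of the class, the 15 highest and 15 lowest ratios among 232 genes (of 684 with at least 50 UMIs) whose difference had 1 sign in all 6 sets, genes of 32 lists, and the genes most and least correlated with Vcam1 and Ccl24. Correlations were repeated with thinned cells. Alternatives were other limits, depth windows, minimum counts, pseudocounts and comparison classes. The ratio, the intervals and the recovery of totals were checked on simulated data. The members, lists and rules were chosen with earlier results of these data known. numpy 2.4.6 and scipy 1.17.1 were used.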

Additional observations from a re-analysis of the deposited data

How the results depend on the processing

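The double-low share of C1q macrophages, 29.8%, was 24.97% with limits of 0.25 for Arg1 and Cxcl9 and 34.2% with limits of 1, and in set 1 it was 33.4%, or 24.0% among cells with at least 3000 UMIs. The number of genes at least 2-fold higher, 42 (4.43% of those tested), was 22 (3.95%) with cells thinned to 1000 UMIs. Of these 22, 14 were among the 42. With no minimum beyond 1 UMI the number was 204 (11.9%). The number at least 2-fold lower, 78 (8.22%), was 46 (8.26%) with thinning, of which 22 were among the 78. It was 29 (3.06%) with a pseudocount of 10 CPM and 246 (14.3%) with no minimum. Fewer genes are tested after thinning (557 against 949) and more without a minimum (1716). The 15 higher and 15 lower genes kept their sign under every alternative that compared the double-low cells with all other C1q macrophages, and 13 to 15 of each stayed past 2-fold. Past 2-fold against Arg1-positive cells alone were 9 of the 15 higher and 4 of the 15 lower genes. The numbers against Cxcl9-positive cells alone were 15 and 12. Against Arg1-positive cells alone, log2 ratios changed sign for Trem2 (-0.21), Ccl6 (-0.13), Serpina3g (0.80), Ch25h (0.044), Dnase1l3 (1.62), Cxcl10 (0.54), Clec9a (0.56), Gbp2b (1.37), Gbp5 (0.49) and Klrb1b (0.91), and against Cxcl9-positive cells alone for Spp1 (0.50), since those classes differ among themselves. The comparisons with at least 3000 UMIs and without each gene's top cell, and the correlations of thinned cells, were chosen after seeing the data. Depth limits the class itself: at a median of 2007 UMIs, a cell with 0 UMIs of a gene may still express it.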
